A study of Homo sapiens with 8 samples.

Results

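The aminoacyl-tRNA synthetases are the enzymes that load each tRNA with its amino acid, and 36 of their genes were followed here among the 43317 genes of a human expression array. Members were taken by the gene symbols of the array design, and they comprised 20 cytosolic enzymes and 16 mitochondrial enzymes, the latter marked by a 2 at the end of the symbol. RNA from 8 treatments of human cancer cell lines was measured, each against mock cells of the same line, on 8 arrays with 2 colours, so that each group held 1 array. PC3 prostate cancer cells received bisamide for 24 h, bisamide for 48 h or miR-125b-1-3p, C4-2 prostate cancer cells received miR-199-3p, 786-O kidney cancer cells received miR-532-5p or miR-532-3p, and T24 bladder cancer cells received miR-140-5p or miR-140-3p. The dye was Cy3 for mock and Cy5 for treated samples throughout, without a dye swap. According to the labels the mock cells had no transfection, so the effect of a miRNA and that of the transfection reagent cannot be told apart. Bisamide is a small molecule that binds pirin, an iron-binding nuclear protein, and it was dissolved in DMSO. Whether its mock cells received DMSO was not given in the sources used here, nor were the dose of bisamide on these arrays and the duration of the miRNA treatments. All 4 lines are established lines, and no treatment had a second array.

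Cytosolic synthetases supply charged tRNA to the ribosomes of the cytosol, and a separate nuclear-encoded set supplies the ribosomes inside mitochondria. GARS and KARS each encode both forms, which is why no gene with the suffix 2 exists for glycine and lysine. EPRS is a single protein with a glutamyl and a prolyl enzyme. When uncharged tRNA accumulates or other stresses activate the kinases of the integrated stress response, translation of the transcription factor ATF4 rises, and ATF4 is known to activate genes for amino acid synthesis and uptake together with many, but not all, cytosolic synthetase genes. Of the cytosolic members, 12 are known targets of ATF4 (AARS, CARS, EPRS, GARS, IARS, LARS, MARS, NARS, SARS, TARS, WARS and YARS), and they are called the ATF4 list here. The other 8 cytosolic members are DARS, FARSA, FARSB, HARS, KARS, QARS, RARS and VARS.

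Each value given is the log2 of treated over mock signal after background correction and loess normalization within the array. A gene counted as measured on an array when its probe was well above background in both channels, which held for 15442 to 19241 genes. All 36 members were measured on the array of bisamide at 24 h and 35 on each other array, where MARS2, the mitochondrial methionyl enzyme, was too dim. Since 1 array per group allows no test, a member was called higher or lower when its log2 ratio passed 0.5 in size, and the share of all measured genes that did the same is given where an array is first counted. The only repeated RNA of a kind was that of the mock channels. Over the 3 PC3 mock channels the signal of a cytosolic member spanned 0.015 to 0.42 on the log2 scale with a median of 0.18, and that of a mitochondrial member other than MARS2 spanned 0.058 to 0.43 with a median of 0.12. The labels do not say whether these mocks were separate cultures. Markers of the lines were partly as labelled. KLK3 had a raw Cy3 signal of 13592 in C4-2 mock cells against 21.4 to 22.6 elsewhere, and HOXB13 had 7455 to 9538 in PC3. PAX8 had 235 to 239 in 786-O and up to 423 in the other lines. In T24 the urothelial markers GATA3, UPK2 and UPK3A were not well above background, and UPK1A was dim, at 30.7 to 37.9.

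**Figure D1:**
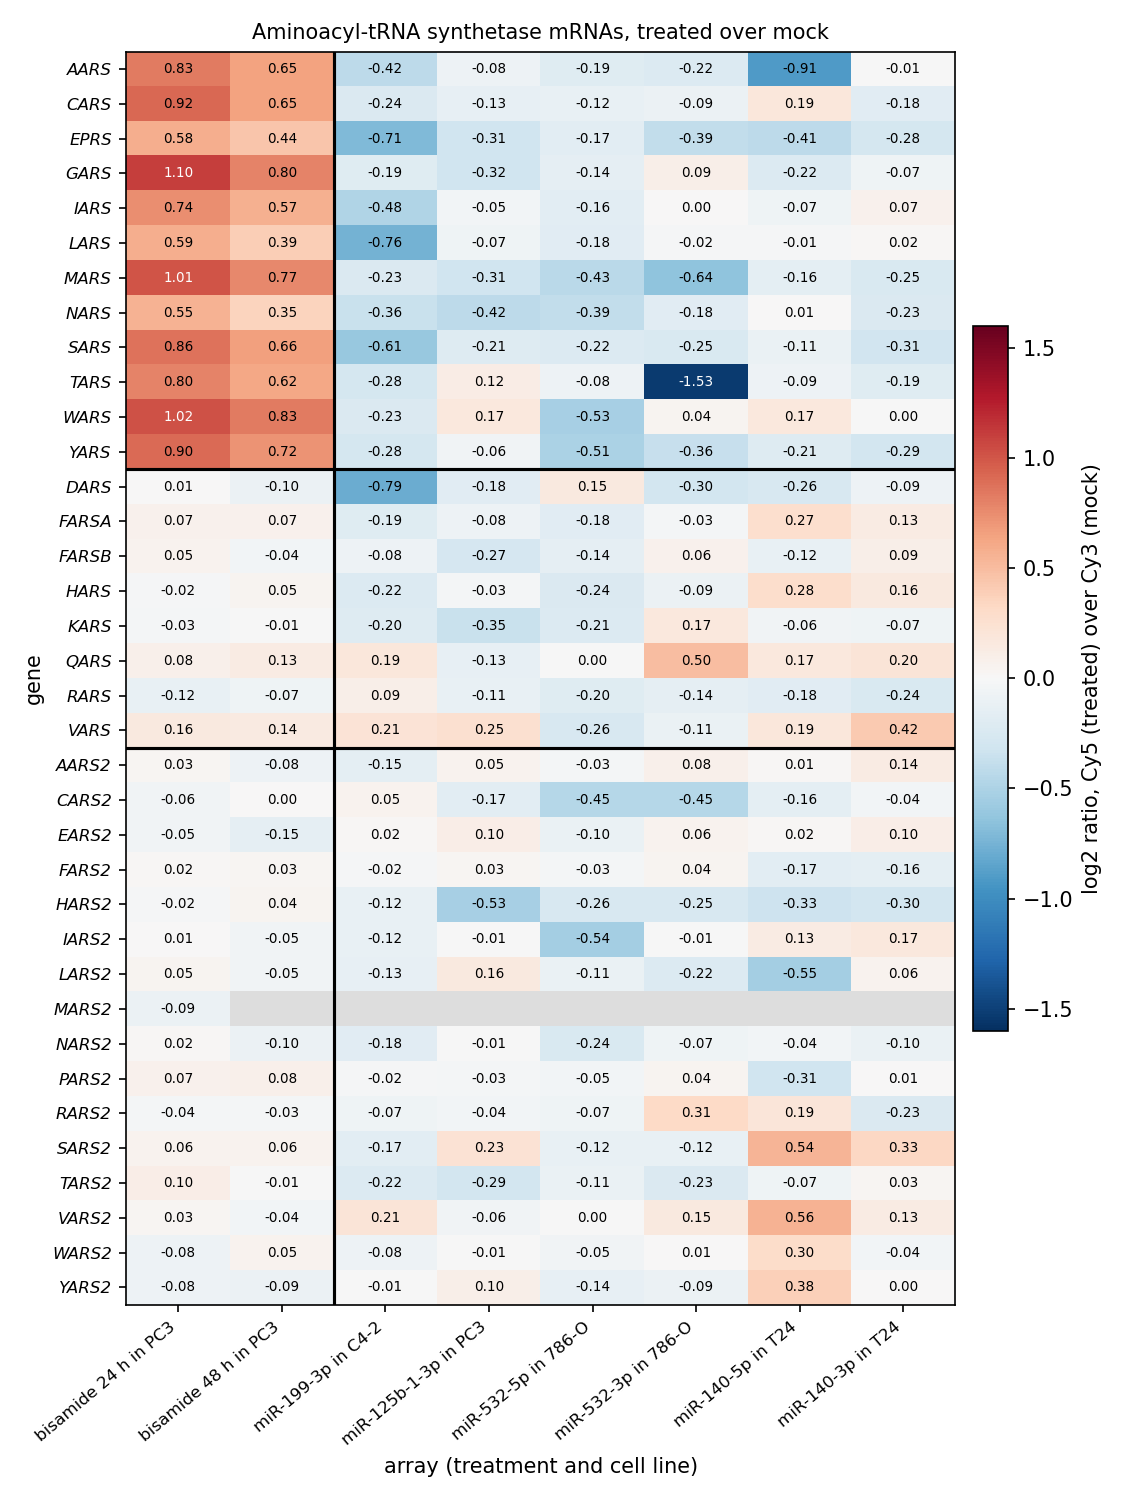
Log2 ratio of treated over mock RNA for the 36 synthetase genes (rows) on the 8 arrays (columns), in red where treated RNA was higher and in blue where it was lower. Horizontal lines part the ATF4 list, the other cytosolic and the mitochondrial genes, and grey cells mark MARS2 where it was not well above background in both channels. The red block is the 12 genes of the ATF4 list on the bisamide arrays, and the darkest blue cell is TARS after miR-532-3p, at -1.53.

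In PC3 cells treated with bisamide for 24 h, 12 of 20 cytosolic synthetases were higher than in mock cells by more than 0.5 and none was lower, whereas none of 16 mitochondrial synthetases passed that size in either direction. Among all measured genes 1.05% were higher and 0.4% were lower by that size. The 12 higher members were the 12 genes of the ATF4 list. Their log2 ratios ran from 0.55 to 1.10 with a median of 0.85, while the other 8 cytosolic members lay between -0.12 and 0.16 and the mitochondrial members between -0.09 and 0.10. No member lay between the highest of the other cytosolic genes, VARS at 0.16, and the lowest of the ATF4 list, NARS at 0.55. The ATF4 list was drawn up with earlier results of these arrays known, so its match with the higher members is a description and not independent evidence.

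At 48 h, 9 of 20 cytosolic members were higher by more than 0.5 and none was lower, against 0.915% and 0.878% of all measured genes. None of the 15 measured mitochondrial members passed the size. The 9 all belonged to the ATF4 list, whose ratios ran from 0.35 to 0.83 with a median of 0.65. EPRS, LARS and NARS were the members of the list under the size at 48 h, with 0.44, 0.39 and 0.35. The other 8 cytosolic members lay between -0.10 and 0.14.

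**Figure D2:**
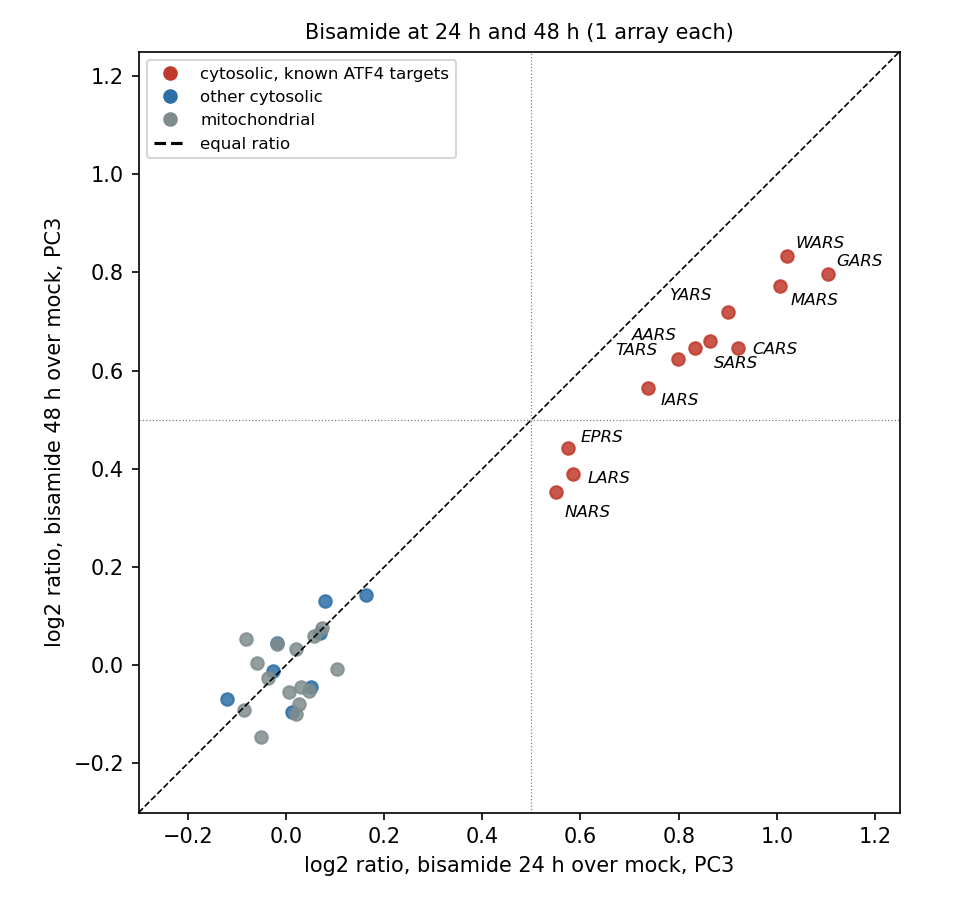
Log2 ratio of bisamide over mock at 24 h (horizontal) and 48 h (vertical) for the 35 members measured on both arrays, each a point, with 1 array per time. The dashed line marks equal ratios and the dotted lines mark 0.5. The 12 named genes of the ATF4 list lie apart from all others and below the dashed line, that is, nearer to 0 at 48 h.

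The largest ratios belonged to the enzymes for glycine, tryptophan and methionine. GARS, which serves both compartments, had raw signals of 218 in the mock channel and 854 in the bisamide channel at 24 h, and 195 and 600 at 48 h. Its normalized log2 ratio was 1.10 at 24 h, a 2.15-fold difference, and 0.80 at 48 h. The raw difference was wider than the normalized one. Cy5 was the brighter dye for most measured genes on these arrays, with a median raw log2 ratio of 0.64 at 24 h and 0.61 at 48 h, and the loess step takes such a shift off. WARS, the tryptophanyl enzyme, rests on raw signals of 389 and 1443 at 24 h and of 338 and 1084 at 48 h. Its log2 ratio of 1.02 was a 2.03-fold difference, and at 48 h it was 0.83. MARS, the methionyl enzyme, went from 1144 in mock to 4354 in treated cells at 24 h and from 1187 to 3804 at 48 h, with log2 ratios of 1.01 and 0.77. These were the 3 members past a log2 ratio of 1.0 at 24 h, a size that 0.182% of measured genes passed, and none passed it at 48 h, when 0.0946% of measured genes did. On the 6 miRNA arrays the lowest, median and highest values were -0.32, -0.17 and 0.09 for GARS, -0.53, 0.02 and 0.17 for WARS, and -0.64, -0.28 and -0.16 for MARS, so the bisamide arrays stood above every miRNA array for all of them.

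The cysteinyl, tyrosyl, seryl and alanyl enzymes followed. CARS had raw signals of 67.2 in mock and 248 in treated cells at 24 h and of 71.1 and 199 at 48 h, with log2 ratios of 0.92 and 0.65. On the miRNA arrays CARS ranged from -0.24 to 0.19 with a median of -0.12. YARS had log2 ratios of 0.90 and 0.72 on raw signals of 152 and 513 at 24 h and of 144 and 416 at 48 h. Its miRNA arrays ran from -0.51 to -0.06 with a median of -0.28. SARS had signals of 2088 in mock and 7428 in treated cells at 24 h and of 2022 and 6184 at 48 h, with log2 ratios of 0.86 and 0.66. On the miRNA arrays SARS ran from -0.61 to -0.11 with a median of -0.23. AARS had log2 ratios of 0.83 and 0.65, from raw signals of 130 and 421 at 24 h and of 127 and 351 at 48 h. AARS ranged from -0.91 to -0.01 on the miRNA arrays, with a median of -0.21.

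The threonyl, isoleucyl, leucyl, glutamyl-prolyl and asparaginyl enzymes made up the rest of the list. TARS had raw signals of 2807 and 9716 at 24 h and of 2607 and 7898 at 48 h, and its log2 ratios were 0.80 and 0.62. Its miRNA arrays lay between -0.28 and 0.12 apart from -1.53 after miR-532-3p. IARS had 852 in mock and 2634 in treated cells at 24 h and 826 and 2238 at 48 h, which gave 0.74 and 0.57. For LARS the signals were 608 and 1653 at 24 h and 560 and 1305 at 48 h, with log2 ratios of 0.59 and 0.39. EPRS had log2 ratios of 0.58 and 0.44 from raw signals of 2119 and 6121 at 24 h and of 1946 and 5065 at 48 h. NARS stood lowest on the list at both times, with 0.55 and 0.35 from signals of 1382 and 3819 at 24 h and of 1338 and 3188 at 48 h. On the miRNA arrays the lowest, median and highest values were -0.48, -0.06 and 0.07 for IARS, -0.76, -0.04 and 0.02 for LARS, -0.71, -0.35 and -0.17 for EPRS, and -0.42, -0.30 and 0.01 for NARS. None of these genes reached its lower bisamide value on any miRNA array.

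Set against the spread of the mock cells, each gene of the ATF4 list exceeded the range of its own 3 PC3 mock signals at both times (12 of 12 at 24 h and 12 of 12 at 48 h, all upward). The closest was EPRS at 48 h, at 0.44 beside a mock range of 0.42. The count at 24 h was settled by the choice of genes, which are the members called higher at that time. Their lowest ratio was 0.55, and the widest cytosolic mock range was 0.42. The share of all measured genes past their own mock range is not given here. Of the other 8 cytosolic genes none exceeded its own range at 24 h and 1 did at 48 h. This was DARS, which was lower at -0.10 and had the narrowest mock range, 0.015. Among the 15 mitochondrial genes with each PC3 mock signal well above background, which leaves out MARS2, 1 did at 24 h, PARS2 at 0.07, and 2 at 48 h, EARS2 at -0.15 and PARS2 at 0.08. These mock channels include those of the bisamide arrays themselves. They hold Cy3 signal alone, so their range leaves out the spread of treated cells and any effect of the dyes, which a ratio includes.

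**Figure D3:**
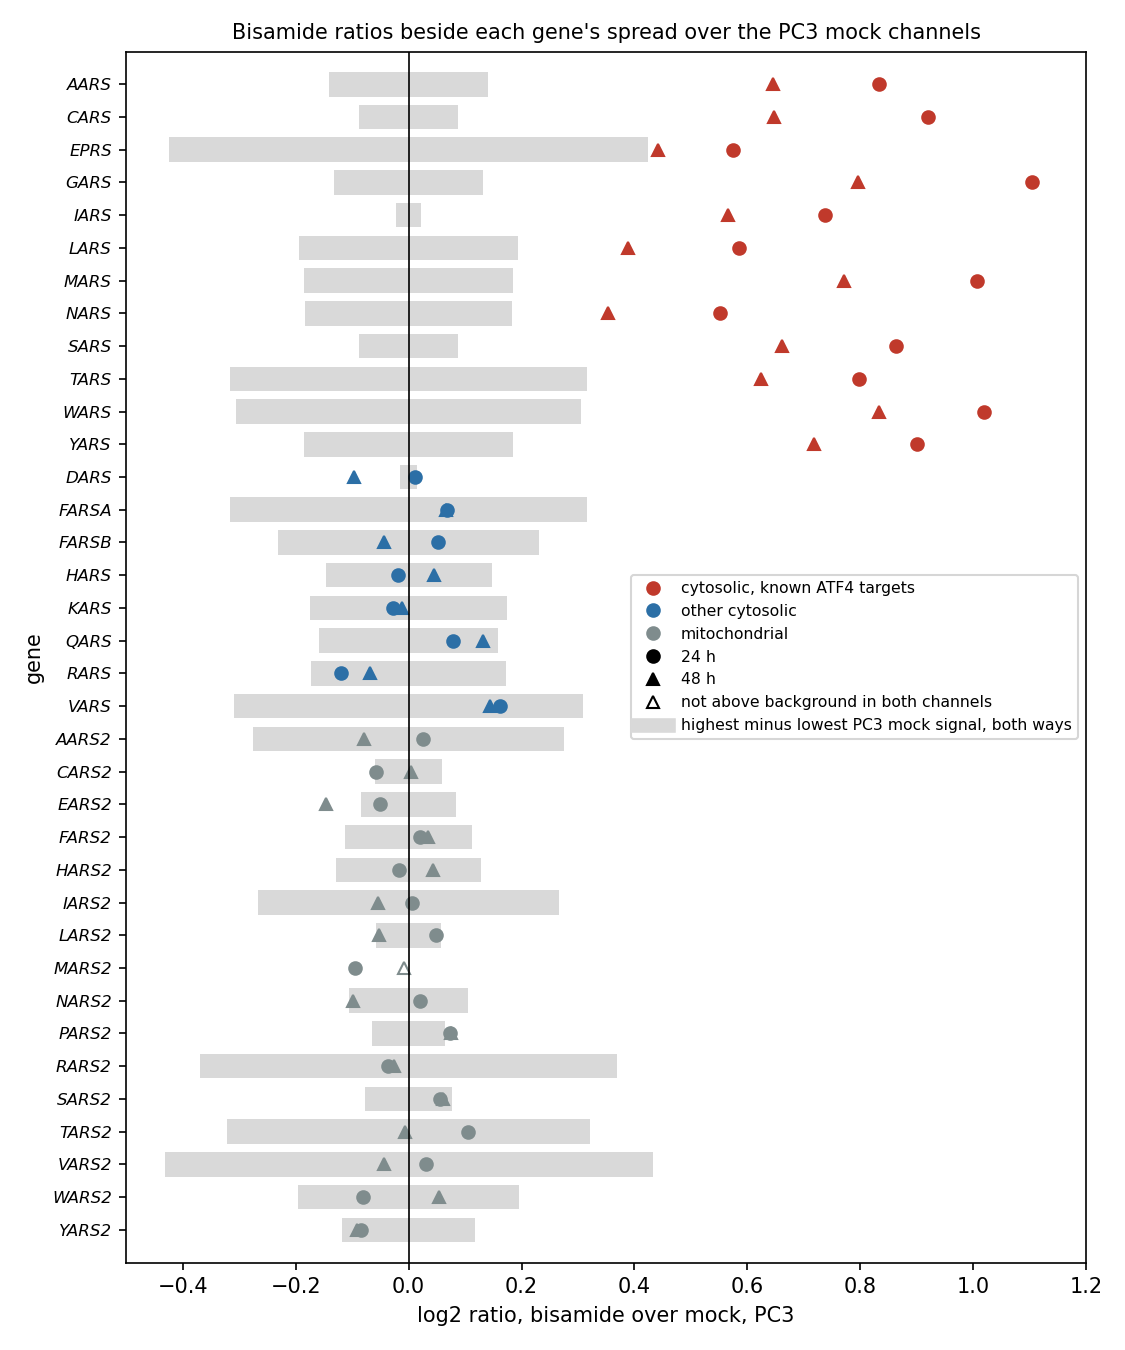
Log2 ratio of bisamide over mock at 24 h (circles) and 48 h (triangles) for each of the 36 genes, with grey bars that reach, in both directions from 0, as far as the gene's highest minus lowest log2 signal over the 3 PC3 mock channels (no bar for MARS2, whose mock signal was not always above background). All red symbols, the ATF4 list, lie to the right of their bars, while most blue and grey symbols lie within theirs.

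The ratios of the ATF4 list were nearer to 0 at the later time. All 12 were higher at 24 h than at 48 h, by 0.13 to 0.31 with a median of 0.19. GARS, WARS and MARS had the highest ratios at both times. Of the other cytosolic genes 4 of 8 were higher at 24 h, with differences from -0.06 to 0.11. For the 15 mitochondrial genes measured at both times it was 8 of 15, with differences from -0.13 to 0.12. With 1 array at each time these differences include whatever set the 2 arrays apart, and they were not tested. The 12 genes of the ATF4 list are also the members called higher at 24 h. Since the list was drawn up with earlier results known, the count of 12 does not test a change with time. The share of all measured genes with a higher ratio at 24 h than at 48 h is not given here.

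The cytosolic median was 0.58 at 24 h and the mitochondrial median 0.01, a difference of 0.57. At 48 h the medians were 0.42 and -0.03, a difference of 0.44. Within the mock channel, each gene's signal was taken as its deviation from its own mean over the 3 PC3 mocks. The difference between the compartment medians of these deviations had an SD of 0.0051, without MARS2. That SD holds no treated channel, and the mocks may share RNA, so it does not measure the error of the differences in ratio. Pairs of enzymes for the same amino acid showed the difference in ratio gene by gene. The cytosolic enzyme had the higher ratio in 13 of 15 pairs at 24 h, with a median difference of 0.69 and more than 0.5 in 10 pairs. The widest pairs were MARS with MARS2, at 1.01 and -0.09, and WARS with WARS2, at 1.02 and -0.08. HARS and HARS2, the neighbouring histidyl pair, were level at -0.02 each, and RARS with RARS2, the arginyl pair, was turned the other way, at -0.12 and -0.04. At 48 h it was 12 of 14 pairs, with a median difference of 0.53 and more than 0.5 in 7 pairs.

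**Figure D4:**
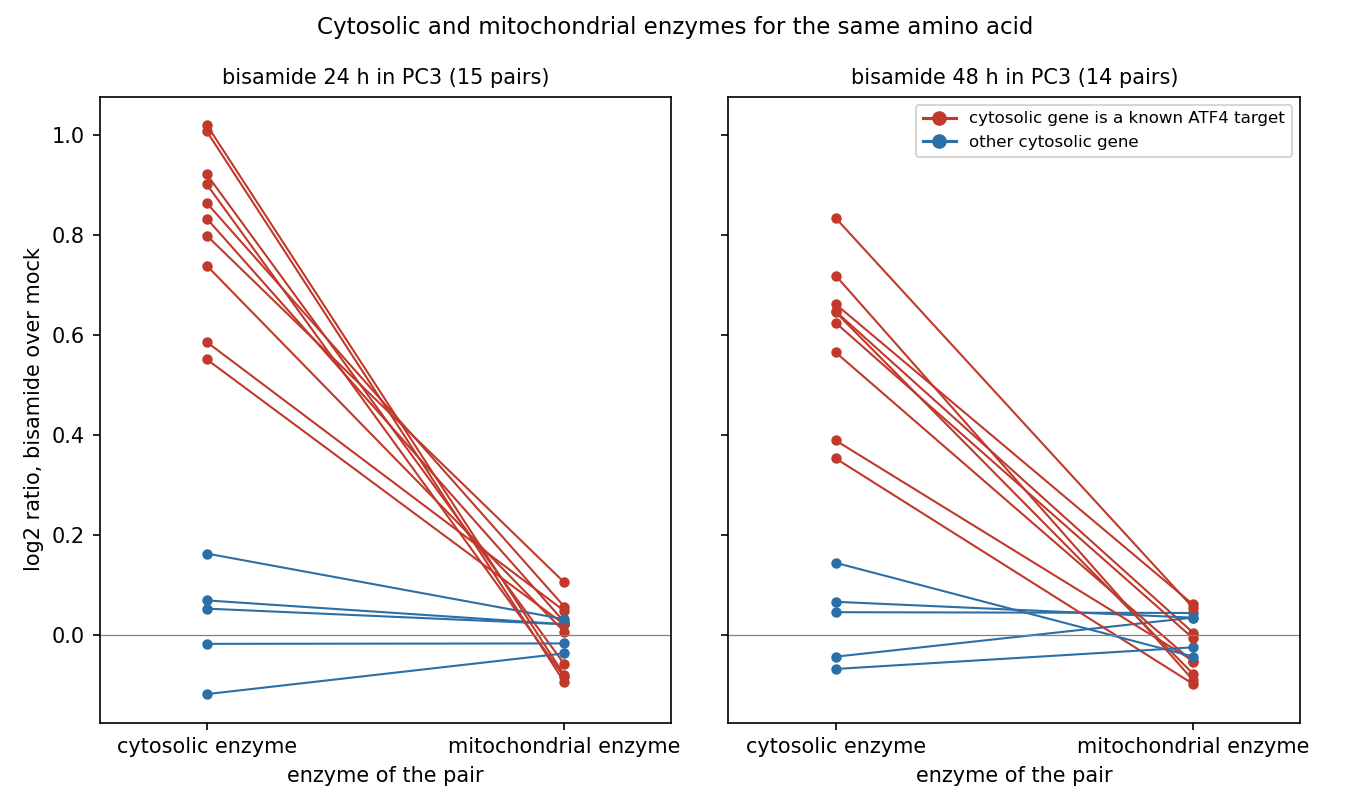
Each line joins the log2 ratio (bisamide over mock) of a cytosolic enzyme to that of the mitochondrial enzyme for the same amino acid, at 24 h (15 pairs) and 48 h (14 pairs, without the methionyl pair); FARSA and FARSB, the 2 subunits of the phenylalanyl enzyme, each pair with FARS2. Red lines start from genes of the ATF4 list, and all of them descend, to mitochondrial values between -0.10 and 0.10.

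Membership of the multisynthetase complex, a particle that binds together 8 of the cytosolic members (DARS, EPRS, IARS, KARS, LARS, MARS, QARS and RARS), was shared by higher genes and by genes near 0. In the complex 4 of 8 were higher by more than 0.5 at 24 h and 2 of 8 at 48 h. Outside it the counts were 8 of 12 and 7 of 12, and among all measured genes the share was 1.05% at 24 h and 0.915% at 48 h. The structural class of the enzyme, named for the fold of its catalytic domain, was likewise mixed. Without EPRS, which joins both classes, 6 of 9 class I enzymes and 5 of 10 class II enzymes were higher at 24 h, and 5 of 9 and 4 of 10 at 48 h, beside the same shares of all measured genes. Glutamine, aspartate, histidine, lysine, arginine, valine and phenylalanine were the amino acids whose cytosolic enzymes stayed under the size at both times.

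Of 18 other genes of tRNA charging and its use, 1 was higher by more than 0.5 at 24 h, beside 1.05% of all measured genes, and 2 were at 48 h, beside 0.915%. None was lower, and the median of the 18 was 0.02 at 24 h and 0.07 at 48 h. XPOT, which exports tRNA from the nucleus, was at 0.77 at 24 h and 0.50 at 48 h, just past the size. EEF1A1, the elongation factor that brings charged tRNA to the cytosolic ribosome, was at 0.31 and 0.57, a value that is uncertain because many near-identical copies of this gene exist. The 3 scaffold proteins of the complex were at 0.17 and 0.13 (AIMP1), 0.27 and 0.26 (AIMP2) and -0.14 and -0.10 (EEF1E1). QRSL1, a subunit of the amidotransferase that makes mitochondrial glutaminyl-tRNA, was at -0.10 at both times, on dim raw mock signals of 35.3 and 33.4. The other subunits of this enzyme were at 0.15 and 0.26 (GATB) and -0.004 and -0.15 (GATC). TUFM, the mitochondrial counterpart of EEF1A1, was at -0.04 and -0.03. ASNS, which makes asparagine, and CHAC1, which degrades glutathione, are ATF4 targets outside the pathway. ASNS was at 2.80 and 1.86 and CHAC1 at 2.63 and 2.17, so the synthetases moved in the same direction and by less.

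The size of these differences depended on the normalization. With the ratio that the scanner software computed, the ATF4 list ran from 0.55 to 1.45 at 24 h, with CARS at the top, and from 0.38 to 0.99 at 48 h, and the offset used here narrows the ratios of dim genes by construction. With median centring in place of loess, the median of all measured genes itself lay at 0.45 at 24 h and 0.44 at 48 h, and 20 and 19 cytosolic members then passed 0.5, although the ATF4 list, at 1.32 to 1.82 and 1.10 to 1.58, still lay above the other cytosolic genes, at 0.60 to 0.95 and 0.45 to 0.97. Relative to that shift the cytosolic median was 0.93 and 0.70 and the mitochondrial median 0.19 and 0.13. When the median of all measured genes was set to 0, 12 cytosolic members passed at 24 h and 13 at 48 h, and no mitochondrial member did. Since the ATF4 list holds 12 genes, a gene outside it passed at 48 h under this setting. The share of all measured genes past 0.5 is not given here for either kind of centring.

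Of the members, 33 had 1 probe each and IARS, MARS and SARS had several. The 3 IARS probes lay at 0.74, 0.59 and 0.52 at 24 h. MARS was less even, since its dimmer probe gave 0.44 at 24 h and 0.39 at 48 h, under the size, beside 1.01 and 0.77 for the brighter probe used. The SARS probes gave 0.86, 1.03 and 0.20 at 24 h and 0.66, 0.58 and 0.27 at 48 h. The signals reported for these genes are those of the brightest probe. The MARS probe used lies at chr12:57910373-57910432 and the other one at chr12:57884057-57884116 in GRCh37, the build of the files. The GARS probe spans chr7:30665891-30668190, a stretch of 2300 bases in the genome, so that the probe crosses a splice junction, and the WARS probe lies at chr14:100801041-100801100.

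Promoter sequences are shown because ATF4 binds, with a partner, to a short composite element that is often written TGATGNAA and known as CARE. RefSeq promoter windows (GRCh38.p14, 250 bases before the start and 50 from it on) were found for 30 of the 36 members. DARS, LARS, VARS, YARS, AARS2 and VARS2 had none. The 8 letters, with any base at N and on either strand (TTNCATCA on the other), were present in 7 of 10 genes of the ATF4 list with a window, in 0 of 6 other cytosolic genes and in 1 of 14 mitochondrial genes. Of all 27305 genes with a window 4.46% held it. The windows of EPRS, SARS and WARS did not. A match of letters is a description and not a bound site, and genes are called ATF4 targets partly because of such elements, so neither is independent of the other. In each line below the gene's own strand is read 5′ to 3′ and the capitals mark the match.
AARS, chr16:70289675-70289704: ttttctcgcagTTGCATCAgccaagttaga
CARS, chr11:3057407-3057436: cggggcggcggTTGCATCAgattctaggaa
GARS, chr7:30594834-30594863: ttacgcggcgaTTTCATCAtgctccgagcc
IARS, chr9:92293692-92293721: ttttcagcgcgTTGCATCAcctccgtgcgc
MARS, chr12:57488053-57488082: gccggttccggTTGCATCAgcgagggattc
NARS, chr18:57621804-57621833: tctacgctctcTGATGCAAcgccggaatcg
TARS, chr5:33440956-33440985: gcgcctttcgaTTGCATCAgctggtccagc
YARS2, chr12:32756076-32756105: atccacactgcTGATGGAAaaattaagttt
ASNS, chr7:97872458-97872487: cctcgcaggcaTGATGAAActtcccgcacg
CHAC1, chr15:40953251-40953280: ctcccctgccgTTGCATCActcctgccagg

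The form TGATGCAA was the one in 6 of the 7 cytosolic genes (AARS, CARS, IARS, MARS, NARS and TARS) and in 1.08% of all genes with a window. GARS held TGATGAAA, the form also seen in ASNS, which 1.37% of all genes held. YARS2, the mitochondrial tyrosyl enzyme, held TGATGGAA, and its log2 ratio was -0.08 at 24 h and -0.09 at 48 h. With the start base counted as 0, the match began at -2 in CARS, -4 in MARS, 2 in TARS, 14 in NARS, -13 in IARS and -33 in GARS. It lay farther off in AARS, at -187, and in YARS2, at -197. EPRS, SARS and WARS were among the higher genes at 24 h with no match in their windows.

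The miRNA arrays asked which genes move when a mature miRNA is supplied in excess. A miRNA pairs with target mRNAs chiefly through its seed, bases 2 to 8, and lowers them. The sequences are shown because the strands compared within a line have different seeds. They are the RefSeq mature sequences, with the seed in capitals, and miR-199a-3p and miR-199b-3p are identical.
miR-199-3p: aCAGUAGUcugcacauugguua
miR-125b-1-3p: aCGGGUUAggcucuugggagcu
miR-532-5p: cAUGCCUUgaguguaggaccgu
miR-532-3p: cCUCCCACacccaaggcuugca
miR-140-5p: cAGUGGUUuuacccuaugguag
miR-140-3p: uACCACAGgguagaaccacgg

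No cytosolic synthetase was higher by more than 0.5 on any miRNA array, and the numbers lower ran from 0 to 4 of 20, where 0.883% to 3.84% of all measured genes were lower. The cytosolic median was below 0 on all 6 arrays, from -0.23 to -0.07, and the cytosolic minus the mitochondrial median ran from -0.15 to -0.08. These directions depended on the scaling. With median centring the difference between the compartments was above 0 after miR-532-3p (0.11), miR-140-5p (0.17) and miR-140-3p (0.03), and with the ratio of the scanner software it was above 0 after miR-532-5p (0.05). With median centring, and relative to the median of all measured genes, the cytosolic median stayed below 0 after miR-199-3p (-0.12) and miR-532-5p (-0.25) and lay above 0 after miR-125b-1-3p (0.12), miR-532-3p (0.07), miR-140-5p (0.33) and miR-140-3p (0.19). The shift of all measured genes under that setting was 0.30, -0.03, 0.42, 0.17, 0.35 and 0.45 in the same order.

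**Figure D5:**
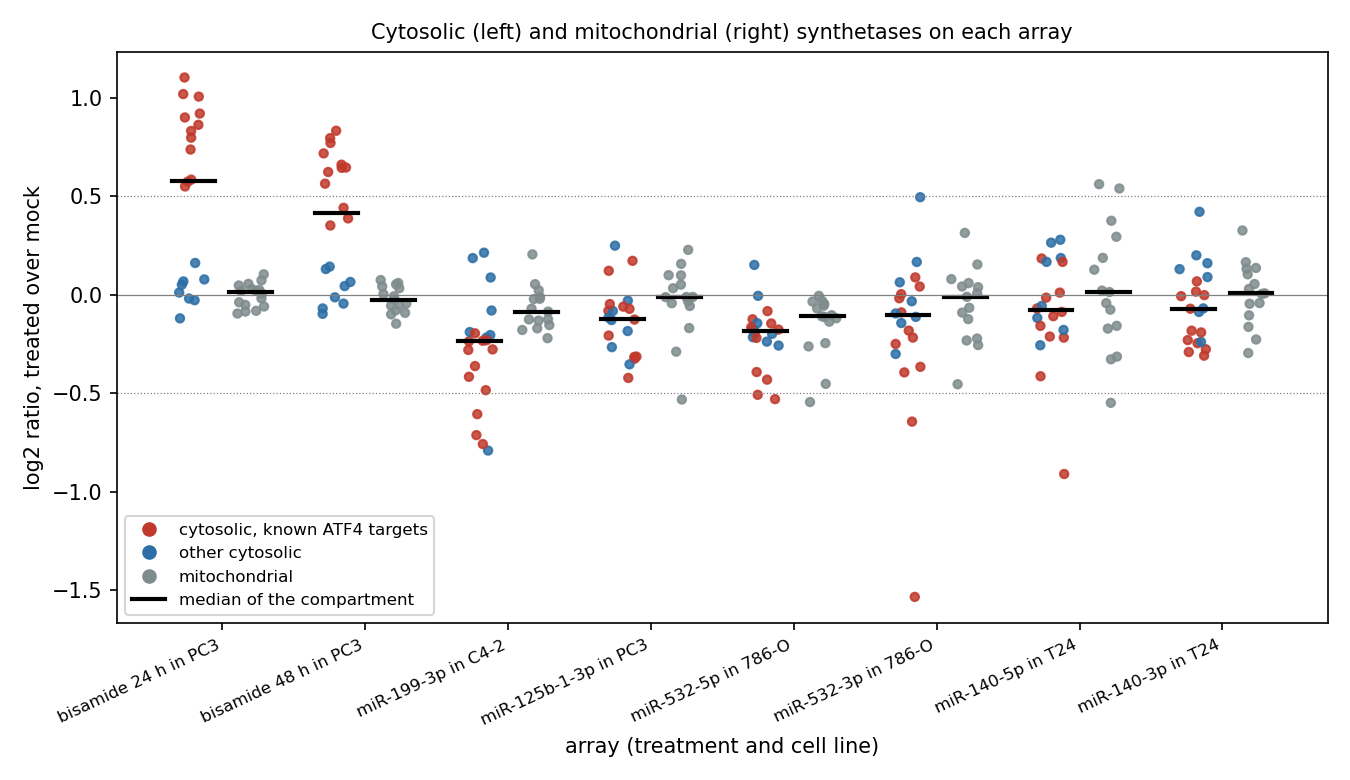
Log2 ratio of treated over mock RNA for each measured member on each array, with cytosolic genes to the left of each array's mark and mitochondrial genes to the right, black bars at the median of the compartment and dotted lines at 0.5 and -0.5. On the bisamide arrays the cytosolic genes fall into a high and a low group, and on the miRNA arrays the compartments overlap throughout.

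After miR-199-3p in C4-2 cells 4 of 20 cytosolic members were lower by more than 0.5, beside 2.73% of all measured genes, and 0 of 15 mitochondrial members were. No member was higher by that size, as 1.76% of measured genes were. DARS, the aspartyl enzyme, had raw signals of 760 in mock and 673 in treated cells and a log2 ratio of -0.79. LARS was at -0.76, from 263 and 212, and EPRS at -0.71, from 1069 and 1035. The fourth was SARS, at -0.61, from 1731 and 1886. In raw signals SARS was thus not dimmer, but Cy5 was the brighter dye for most measured genes on this array too. Their median raw log2 ratio was 0.40. The other SARS probes had normalized log2 ratios of -0.92 and -0.09. With median centring none of the 4 passed the size, with DARS at -0.18, LARS at -0.28, EPRS at -0.06 and SARS at 0.10, above 0. Centring on the measured genes gave -0.48, -0.58, -0.37 and -0.20 in the same order. The count was 1 with centring on the measured genes, 2 after the median over the miRNA arrays was taken off, and 6 with an offset of 0, with plain subtraction, with no background correction and with the scanner's ratio. DARS, EPRS and LARS belong to the multisynthetase complex (3 of its 8 genes, against 1 of 12 outside it). All 12 genes of the ATF4 list were below 0, with a median of -0.32, and 17 of 20 cytosolic members were, while 52.7% of all measured genes lay above 0. With median centring 2 of the 12 and 3 of the 20 were below 0, and with centring on the measured genes 11 and 15. QARS, RARS and VARS were the cytosolic members above 0, at 0.19, 0.09 and 0.21. XPOT was also lower on this array, at -0.52. ASNS was at -1.25 and CHAC1 at -0.12.

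After miR-532-3p in 786-O cells TARS had the largest ratio of any member on any array. Its raw signal was 1385 in mock and 657 in treated cells, a log2 ratio of -1.53 and thus 2.89-fold lower. On the other 5 miRNA arrays TARS lay between -0.28 and 0.12, and after miR-532-5p in the same line it was at -0.08. MARS was the other cytosolic member of 20 lower by more than 0.5, at -0.64, where 3.84% of measured genes were. Its second probe, however, was at -0.01, and with median centring MARS was at -0.23 and TARS at -1.04. Centring on the measured genes gave -0.40 for MARS and -1.21 for TARS. QARS was at 0.50, just under the size that 1.71% of measured genes passed upward, and no mitochondrial member passed it. CARS2, the mitochondrial cysteinyl enzyme, was at -0.45 on this array and at -0.45 after miR-532-5p. DTD1, which removes D-amino acids from mischarged tRNA, was at -0.57.

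After miR-532-5p in 786-O cells 2 of 20 cytosolic members were lower by more than 0.5, beside 3.67% of measured genes, with WARS at -0.53 and YARS at -0.51. Both were dim on this array. WARS went from a raw signal of 110 to 55.0 and YARS from 101 to 51.4. Of the mitochondrial members 1 of 15 was lower, IARS2 at -0.54, from 399 to 232. None was higher by that size, as 3.6% of measured genes were. All 15 measured mitochondrial members and 19 of 20 cytosolic members were below 0, DARS being the exception at 0.15, while 50.1% of all measured genes lay above 0. The counts were also 15 and 19 with median centring, and 14 and 18 with the scanner's ratio. ASNS was at -1.33.

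After miR-140-5p in T24 cells the cytosolic member past the size was AARS, at -0.91, from raw signals of 228 and 161, where 2.89% of measured genes were lower by more than 0.5. With median centring AARS was at -0.44, so that no cytosolic member was lower by more than 0.5. The median of all measured genes itself lay at 0.35 under that setting. Centring on the measured genes put AARS at -0.80. With miR-140-3p in the same line AARS was at -0.01. Mitochondrial members moved both ways here. LARS2 was lower at -0.55, while SARS2 at 0.54 and VARS2 at 0.56 were higher, a direction that 1.74% of measured genes shared. With median centring LARS2 was at -0.09, SARS2 at 0.95 and VARS2 at 1.24. Centring on the measured genes gave -0.44, 0.60 and 0.89. SARS2 and VARS2 gave the 2 values of a mitochondrial gene above 0.5 on any array. YARS2 followed at 0.38 and WARS2 at 0.30.

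After miR-140-3p in T24 cells no member passed 0.5 in either direction, beside 0.998% of measured genes higher and 1.09% lower. VARS was the highest, at 0.42, and SARS the lowest, at -0.31, although the other SARS probes were above 0, at 0.18 and 0.16. After miR-125b-1-3p in PC3 cells no cytosolic member passed it either, beside 1.77% higher and 0.883% lower, and NARS was the lowest at -0.42. HARS2 was the 1 mitochondrial member of 15 that was lower, at -0.53, from raw signals of 331 and 356. The median raw log2 ratio over all measured genes was 0.58 on this array. With median centring the HARS2 ratio was 0.03, and centring on the measured genes gave -0.38. Over the 6 miRNA arrays HARS2 had -0.12 as its highest value and -0.28 as its median. It was below 0 on 1 of them with median centring and on 5 with centring on the measured genes.

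Taken across the 6 miRNA arrays, the members that were below 0 on every array were AARS, EPRS, MARS, SARS and YARS among the cytosolic genes and HARS2 and NARS2 among the mitochondrial genes measured. Some values lay close to 0, since the highest was -0.006 for AARS, -0.011 for NARS2 and -0.059 for YARS. QARS and VARS, by contrast, were below 0 on 2 of 6 arrays each, with medians of 0.18 and 0.20. These 7 of 35 members stand beside 5.16% of the 12639 genes measured on all 6 arrays. For SARS this held for the probe used, while its other probes were above 0 after miR-140-5p (0.28 and 0.07) and miR-140-3p (0.18 and 0.16). The pattern depended on the scaling, since with median centring none of the 7 was below 0 on more than 3 arrays and no member was below 0 on all 6. With centring on the measured genes 2 members were, YARS and PARS2, beside 5.19% of genes, and with the scanner's ratio 9 were, beside 5.97%. Arrays of the same line may share mock RNA, which the labels do not settle, so the counts over arrays are not counts of independent samples.

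In untreated cells the members differed between lines by more than between mocks of a line. The range of a cytosolic gene's mean mock signal over the 4 lines was 0.26 to 1.79 on the log2 scale, over 1 for 6 of 20 genes, and that of a mitochondrial gene was 0.08 to 1.93, over 1 for 5 of 15 without MARS2. FARSA, the catalytic subunit of the phenylalanyl enzyme, had the widest range of the cytosolic genes. Its mean log2 mock signal was 8.99 in PC3, 8.23 in C4-2, 8.19 in 786-O and 7.20 in T24, and the 3 PC3 mocks spanned 0.32. MARS was highest in T24, at 10.88, and lowest in C4-2, at 9.22, with 9.98 in PC3 and 10.21 in 786-O. RARS2, the mitochondrial arginyl enzyme, had 10.60 in T24, 10.14 in 786-O, 9.82 in PC3 and 8.67 in C4-2. For RARS2 the PC3 mocks spanned 0.37, so that PC3 and 786-O, whose means lie closer together than that, did not differ beyond the spread. PC3 had the lowest mean of AARS, at 7.14 against 7.51 to 8.38, of YARS, at 7.26 against 7.77 to 8.44, and of GARS, at 7.71 against 8.29 to 8.71. For these 3 genes the PC3 mocks spanned 0.14, 0.19 and 0.13, less than the step to the next line. That order depended on the scaling between arrays, since in raw Cy3 signals 786-O was the lowest line for all 3. AARS was at 79.3 and 82.8 in 786-O and at 116 to 130 in PC3. YARS was at 101 and 102 against 126 to 152, and GARS at 167 and 151 against 195 to 224. C4-2 was represented by 1 mock channel, so its own spread is unknown.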

How the data were processed

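On 8 two-colour Agilent arrays, all from 1 slide and 1 scan so that batches could not be compared, treated RNA was hybridised with mock RNA. The deposited scanner files (Feature Extraction 11.5.1.1) hold linear intensity values, namely a mean per spot and a local background median. They also hold log10 ratios of Cy5 over Cy3, which the authors' scanner software had corrected for background and dye, and which the deposited series table repeats. These ratios served as alternatives only.

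Of 60901 spots for 58201 probes and 43317 genes, 126 to 181 spots an array were left out as outliers, and none was saturated. Signals were corrected with normexp (offset 50) and normalized by loess in limma 3.58.1 (R 4.3.3), with control spots at weight 0, and summarised in Python 3.11.15. Spots of a probe were averaged, and the probe with the highest mean signal stood for its gene. Mock channels were compared after Aquantile scaling. The procedure was tested on simulated data. No p-value was computed, since each group had 1 array, and a log2 ratio past 0.5 in size was counted as higher or lower. By rule all 36 members could be named, those past 0.5 on a bisamide array with values on all arrays, and other genes only from fixed lists. A single result is not reported here. Probe positions are those of GRCh37 in the files, and 35 of 36 members matched RefSeq by accession, 18 of them under a symbol that now ends in 1. The members and lists were chosen with earlier results of these data known. The 13 alternatives varied background correction, normalization, filter, probes, members and size.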

Additional observations from a re-analysis of the deposited data

How the results depend on the processing

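In PC3 cells given bisamide the cytosolic median lay above the mitochondrial median at both times under each of the other settings that recomputed it. The difference was 0.62 at 24 h and 0.48 at 48 h both at an offset of 0 and after plain background subtraction, and 0.59 and 0.45 without background correction. It was 0.65 and 0.46 with the scanner's ratio and with the identical series table, 0.74 and 0.56 with median centring on all probes or on the measured genes, and 0.80 and 0.61 after each gene's median over the miRNA arrays was taken off. At 48 h it was 0.43 with MARS2 kept. Median centring in place of loess, which by construction removes no dye difference that varies with intensity, put 20 cytosolic and 12 mitochondrial members past 0.5 at 24 h and 19 and 11 at 48 h. The median of all measured genes then lay at 0.45 and 0.44, and their share past 0.5 is not given. At a size of 1.0 there were 3 and 0 cytosolic members. On the miRNA arrays the difference changed sign between settings for each miRNA except miR-199-3p, and the cause was not tested. For miR-199-3p it was -0.20 at an offset of 0, -0.21 after plain subtraction, -0.19 without correction, -0.24 with the scanner's ratio, -0.045 with either centring, -0.12 less the miRNA median and -0.17 without GARS and KARS. For miR-125b-1-3p the same difference was -0.092 at an offset of 0, -0.093 after plain subtraction, -0.052 with either centring, 0.0018 less the miRNA median and -0.088 without GARS and KARS. For miR-532-5p it was -0.0078 at an offset of 0, -0.011 after plain subtraction, -0.038 without correction, 0.049 with the scanner's ratio, -0.12 with either centring and -0.049 less the miRNA median. For miR-532-3p it was -0.12 at an offset of 0, after plain subtraction, without correction, with the scanner's ratio and without GARS and KARS, 0.11 with either centring, -0.00084 less the miRNA median and -0.074 with dim members kept. For miR-140-5p it was -0.041 at an offset of 0, -0.045 after plain subtraction, -0.085 without correction, -0.068 with the scanner's ratio, 0.17 with either centring, 0.0061 less the miRNA median and -0.055 with probes averaged. For miR-140-3p it was -0.064 at an offset of 0, -0.067 after plain subtraction, -0.071 without correction, 0.026 with either centring, 0.081 less the miRNA median, -0.054 without GARS and KARS and -0.045 with probes averaged. The count of cytosolic members lower by 0.5 became 0 after miR-199-3p, 4 after miR-532-5p, 1 after miR-532-3p and 0 after miR-140-5p with median centring, and 1 after miR-199-3p and 1 after miR-532-3p with centring on the measured genes, a setting chosen after seeing the data. Less the miRNA median it was 2, 1 and 1 for miR-199-3p, miR-532-5p and miR-532-3p, and with probes averaged it was 1 for miR-532-3p. It rose to 6 for miR-199-3p at an offset of 0, after plain subtraction, without correction and with the scanner's ratio. At a size of 1.0 it was 1 for miR-532-3p and 0 for miR-140-5p, miR-199-3p and miR-532-5p. Of 315 recomputed values of members past 0.5, 313 kept their direction. With median centring SARS after miR-199-3p was at 0.10 and HARS2 after miR-125b-1-3p at 0.035.

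No paired analysis was possible because no group has a second array. Precision is limited by the number of arrays, here 1 a group, and repeated spots, with an SD of 0.039 to 0.053 within an array, do not measure the spread between cultures. Without a dye swap, a dye effect particular to a gene and the treatment cannot be told apart.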
